A study of Mus musculus with 2 samples.

Results

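A set of 10 genes of the haemangioblast and the endothelium, *Kdr*, *Etv2*, *Cdh5*, *Tal1*, *Lmo2*, *Pecam1*, *Tek*, *Tie1*, *Flt1* and *Angpt2*, was followed in RNA from 1 Dullard+/- embryo and 1 Dullard-/- embryo, both of stage E7.5. They were taken as a list of names, and their probes were found through the RefSeq accession on each spot. The 10 genes were covered by 12 probes on 21 spots, among 20281 genes that had a named probe. Of these genes, 9 were measured in both embryos, as were 14770 genes in all. The whole embryo of each genotype, of the C57BL/6 strain, was hybridized to its own array, and both arrays lay on the same slide with the same recorded scan time. The Dullard+/- embryo carried 1 targeted copy of *Dullard*, the Dullard-/- embryo carried 2, and no wild-type embryo was on an array. The study made a pair of targeted alleles, a deletion and a *LacZ* insertion, and named homozygotes of either Dullard-/-, and the sources used here do not say which of them was on the arrays. With 1 embryo per genotype there was no replicate check and no test was run.

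In the gastrulating mouse, some mesoderm cells that leave the primitive streak turn on *Kdr* and move to the yolk sac, where they form the blood islands with the first red cells and the first endothelium. The progenitor of both is called the haemangioblast. The ETS factor Etv2 stands at the head of this programme, the blood and endothelial factors Tal1 and Lmo2 act after it, and adhesion molecules and receptors of the VEGF and angiopoietin systems follow as vessels form. Since a whole embryo was used, fewer cells of a type and less RNA per cell cannot be told apart.

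ETS factors such as Etv2 bind DNA around the letters GGAA, and the windows before the starts of *Etv2* and *Kdr*, which were higher in the Dullard-/- embryo, and of *Tek*, the lowest of the set by log2 fold change, are shown for that reason. The sequences are RefSeq's, build GRCm38.p6, the 250 bases upstream of a transcript start in the direction of the gene, and capitals mark GGAA or its complement TTCC. *Etv2* lies on the minus strand (chr7:30635853-30636102), *Kdr* on the minus strand (chr5:75978456-75978705) and *Tek* on the plus strand (chr4:94739039-94739288).
Etv2: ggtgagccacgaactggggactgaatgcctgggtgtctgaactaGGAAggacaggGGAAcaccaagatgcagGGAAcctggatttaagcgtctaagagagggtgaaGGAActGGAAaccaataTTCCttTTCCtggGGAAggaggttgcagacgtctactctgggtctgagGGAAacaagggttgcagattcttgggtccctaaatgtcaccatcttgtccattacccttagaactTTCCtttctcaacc
Kdr: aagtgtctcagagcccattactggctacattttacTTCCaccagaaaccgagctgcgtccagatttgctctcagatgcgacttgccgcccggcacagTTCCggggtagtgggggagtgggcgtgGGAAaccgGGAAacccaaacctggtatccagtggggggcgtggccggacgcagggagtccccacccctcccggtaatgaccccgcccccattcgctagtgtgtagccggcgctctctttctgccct
Tek: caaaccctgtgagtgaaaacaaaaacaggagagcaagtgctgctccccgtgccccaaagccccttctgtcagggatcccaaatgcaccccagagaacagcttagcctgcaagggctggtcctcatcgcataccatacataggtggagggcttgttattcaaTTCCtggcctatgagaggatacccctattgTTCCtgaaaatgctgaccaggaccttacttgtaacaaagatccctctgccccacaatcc
The window of *Etv2* held 10 such matches, that of *Kdr* 4 and that of *Tek* 2. The windows that are not shown held 7 for *Tie1*, which was not well above background in either embryo, 4 for *Flt1*, and 4 and 3 for *Tal1*. Among the genes with both a window and a fold, the counts followed the order of the log2 fold changes, with ties. These genes are few, the letters were chosen after the folds were seen, and no background was taken for the number of matches per window. A link between the counts and the folds was not tested. The letters are common, and 93.4% of 32851 windows of the same length held at least 1. Windows were on hand for 6 of the 10 genes (*Etv2*, *Flt1*, *Kdr*, *Tal1*, *Tek* and *Tie1*), 7 windows in all, and each held GGAA. The longer ETS core CCGGAAG was in 0 of the 7 (6.91% of all windows), the FOX and ETS composite AACAGGAA in 0 (2.25%), the spaced E-box and GATA composite in 0 (2.16%) and the GATA site AGATAA in 1, of *Tal1* (9.99%). All motifs were searched on both strands, and a match is a description of the letters alone.

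The signals below are those of the scanner software after background subtraction, in arbitrary units and not scaled between arrays, each with the error that the software gives. Folds were taken after each signal was divided by the array's own 75th percentile (286 in the Dullard+/- embryo, 264 in the Dullard-/- one). The error beside a log2 fold change, here Dullard-/- over Dullard+/-, comes from how far repeated spots of similarly bright probes scatter, scaled to the number of spots. For a probe spotted at least 8 times, the scatter of its own spots was used. Embryo-to-embryo spread is not part of it, nor is the disagreement of probes for the same gene, which had a pooled SD of 0.29 over 3747 genes. The *Dullard* probe (*Ctdnep1*, NM_026017) read 672 ± 67.2 in the heterozygote against 144 ± 14.5 in the homozygote, that is, -2.11 ± 0.06 on the log2 scale.

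The 9 measured genes went both ways. In the Dullard-/- embryo *Cdh5*, *Etv2* and *Kdr* exceeded 1.5-fold upward, *Tek* and *Angpt2* exceeded it downward, and *Flt1*, *Lmo2*, *Tal1* and *Pecam1* lay inside 1.5-fold. At 2-fold, 1 of the 9 was higher and 0 were lower, where the shares of all genes past that line were 0.894% upward and 0.765% downward. At 1.5-fold, 3 of the 9 were higher and 2 lower, where 3.92% of all genes were higher, 3.37% lower and 92.7% inside 1.5-fold. The median log2 fold change of the 9 was -0.03, beside 0.01 over all genes. The plots of the signals and of the log2 fold changes show that the median near 0 comes from genes on either side of it.

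**Figure D1:**
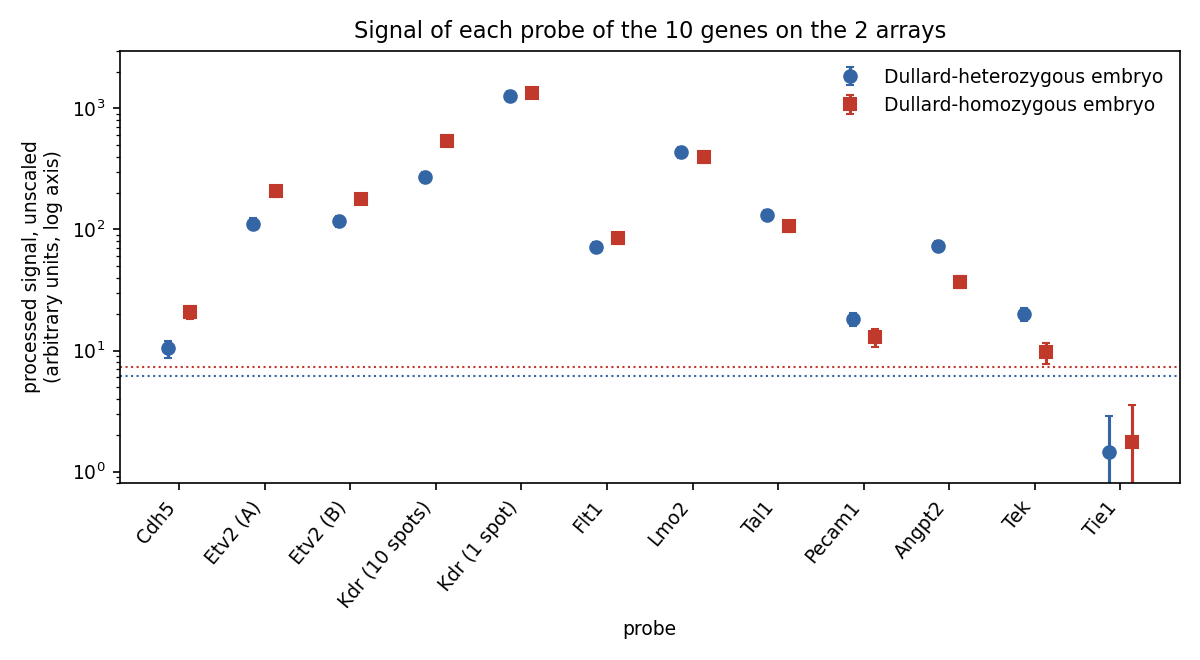
Processed signal of each probe (log vertical axis, arbitrary units, not scaled between arrays) in the Dullard-heterozygous embryo (circles) and the Dullard-homozygous embryo (squares), 1 embryo each, with probes ordered by the log2 fold change of their gene; bars are the error given by the scanner software and dotted lines each array's lowest signal well above background (6.20 and 7.27). Tie1 lies under both lines, and Cdh5, Pecam1 and Tek are the measured genes nearest above them.

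**Figure D2:**
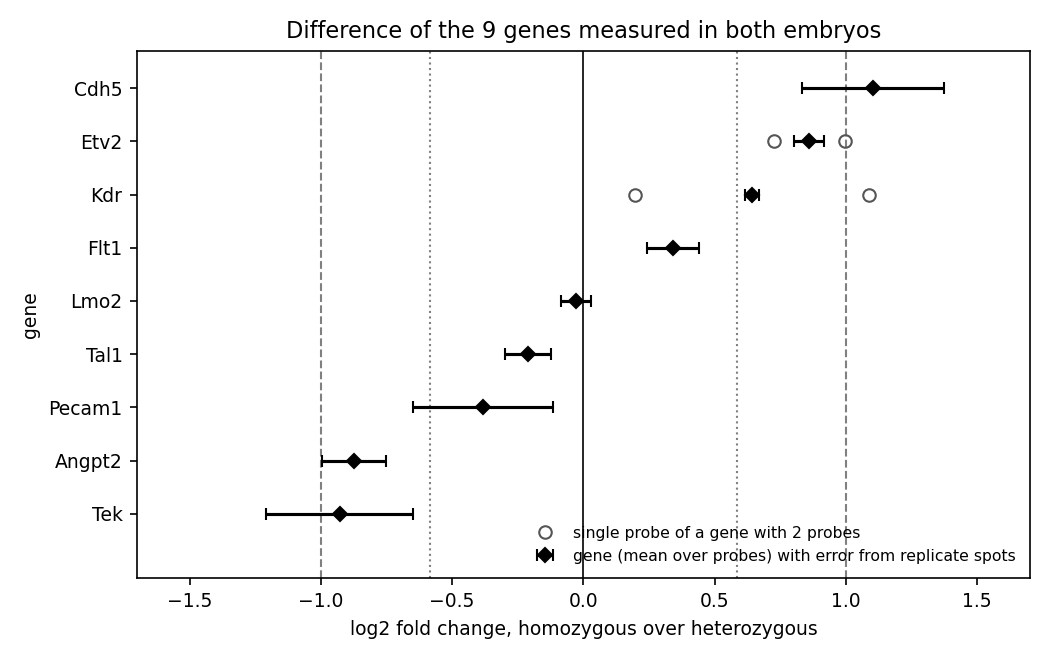
Log2 fold change (horizontal axis, homozygous over heterozygous, after scaling) of the 9 genes measured in both embryos; diamonds are gene values with the error from replicate spots, open circles the single probes of Etv2 and Kdr, dotted lines 1.5-fold and dashed lines 2-fold. Cdh5 is at 1.10 and Tek at -0.93, and the probes of Kdr lie at 0.20 and 1.09.

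Of the transcription factors, *Etv2* (NM_007959), the ETS factor without which mice form neither blood nor vessels, was higher on each of its 2 probes. One probe gave 112 ± 11.3 in the Dullard+/- and 207 ± 20.7 in the Dullard-/- embryo. The other gave 117 ± 11.8 and 179 ± 18.0. The probes were 1.99-fold and 1.65-fold higher, and their difference of 0.27 on the log2 scale was matched or exceeded by 44.7% of genes with more than 1 measured probe. The gene's log2 fold change was 0.86 ± 0.06, or 1.81-fold. From the software's errors, the log2 fold change of each probe had an error of 0.21. When all measured genes were split by mean signal into 4 groups of like size, 0.433% of the group of *Etv2*, the third from the dimmest, were at least as high.

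The partners Tal1 and Lmo2, a basic helix-loop-helix factor and a LIM-only bridging protein that sit in a single DNA-bound complex, were both inside 1.5-fold. *Tal1* (NM_011527) read 132 ± 13.3 in the heterozygote against 106 ± 10.7 in the homozygote, or -0.21 ± 0.09 on the log2 scale. *Lmo2* (NM_008505) gave 435 ± 43.5 and 395 ± 39.5, or -0.03 ± 0.06. *Tal1* kept its sign under every alternative, though some of these cannot change a gene with a single probe. *Lmo2* was within its error of 0, and its sign turned to plus with normexp background correction (0.05) and with scaling to the median. From the software's errors, the error of these log2 fold changes was 0.21 for *Tal1* and 0.20 for *Lmo2*.

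*Kdr* (NM_010612), the main VEGF receptor and the surface marker of the haemangioblast, was read by 2 probes that did not give the same ratio. One was spotted 10 times on each array. Its spots ran from 264 through a median of 273 to 289 in the Dullard+/- embryo. In the Dullard-/- embryo they ran from 511 through 536 to 570. The spots of the 2 arrays did not overlap, and all 10 pairs were higher in the homozygote, with single-spot log2 fold changes from 0.97 to 1.16. This probe was 2.12-fold higher (log2 fold change 1.09, with an SD between spots of 0.06), the second highest of the 274 probes spotted 8 to 10 times and measured on both arrays, of which 0.73% were at least 2-fold higher. All spots went the same way, up or down, for 161 of these 274 probes. The spots repeat the measurement of the same RNA and are not separate embryos.

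The other *Kdr* probe, on 1 spot, gave 1275 ± 127 in the Dullard+/- and 1353 ± 135 in the Dullard-/- embryo. It was 1.15-fold higher, a log2 fold change of 0.20 ± 0.05. The probes were apart by 0.89 on the log2 scale, and 5.34% of genes with more than 1 measured probe were apart by as much. Their mean was 0.64 ± 0.03, an error that does not hold this difference. From the software's errors, the log2 fold change of each probe had an error of 0.20. In the brightest signal group, 0.514% of genes were at least as high as this mean. As a gene, *Kdr* lay inside 1.5-fold with the brightest probe alone (0.20), without scaling (0.53) and with normexp (0.54). The position of each probe on the transcript was not used here. By in situ hybridization at later stages, the study reported reduced *Kdr*, there called *Flk1*, in the extraembryonic mesoderm of Dullard-/- embryos. It also reported *Flk1* in their embryonic mesoderm, and a build-up of cells with *Flk1* where the missing allantois and amnion would lie. RNA of a whole embryo gives no site of expression, so the measures are unlike.

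**Figure D3:**
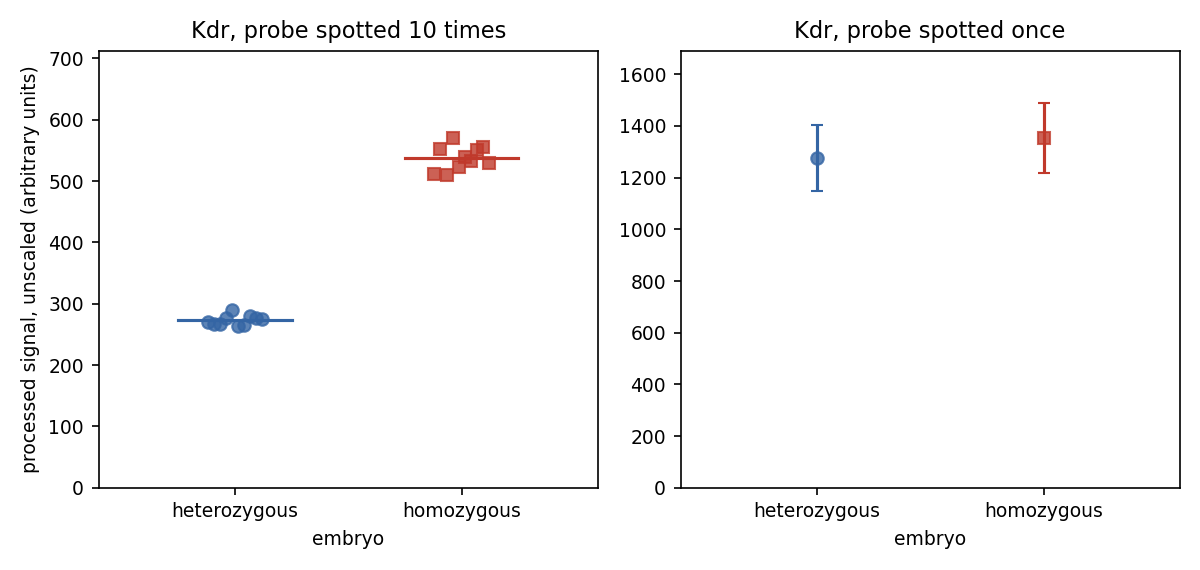
Processed signal (vertical axes from 0, arbitrary units, not scaled between arrays) of the Kdr probe spotted 10 times (left, each point a spot, lines the means) and of the Kdr probe spotted once (right, bars the error given by the scanner software) in the heterozygous and the homozygous embryo. On the left the spots lie at 264 to 289 and 511 to 570, and on the right the values are 1275 and 1353.

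*Flt1* (NM_010228) encodes a VEGF receptor that binds the ligand tightly and holds it away from Kdr. Its probe gave 71.9 ± 7.31 in the Dullard+/- and 84.3 ± 8.57 in the Dullard-/- embryo. The log2 fold change was 0.34 ± 0.10, or 1.27-fold, with an error of 0.21 from the software's errors. This was inside 1.5-fold, and 12.8% of genes in the same signal group were at least as high.

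The genes of the angiopoietin system that were measured were both lower in the Dullard-/- embryo. *Tek* (NM_013690), the angiopoietin receptor Tie2, gave 19.9 ± 2.45 in the Dullard+/- and 9.67 ± 1.97 in the Dullard-/- embryo, 1.90-fold lower (log2 fold change -0.93 ± 0.28). *Angpt2* (NM_007426), a ligand that can block Tie2 in vessels, gave 73.6 ± 7.48 and 37.1 ± 4.03, 1.83-fold lower (-0.87 ± 0.12). *Tie1* (NM_011587), the receptor that pairs with Tie2, was not well above background in either embryo, at 1.45 ± 1.45 and 1.76 ± 1.75, and has no fold. *Tek* was close to the detection floor of the Dullard-/- array (7.27, its lowest signal well above background), while *Angpt2* was well over it on both. Genes at least as low made up 2.82% of the signal group of *Tek*, the dimmest, and 1.03% of that of *Angpt2*, the second. From the software's errors, the log2 fold change of *Tek* had an error of 0.34 and that of *Angpt2* one of 0.21. Without scaling, *Tek* passed 2-fold, at -1.04. With normexp neither gene passed 1.5-fold, *Tek* being at -0.10 and *Angpt2* at -0.33.

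The adhesion molecules of endothelial junctions went apart. *Cdh5* (NM_009868), VE-cadherin, gave 10.4 ± 1.68 in the Dullard+/- and 20.7 ± 2.57 in the Dullard-/- embryo, 2.15-fold higher (log2 fold change 1.10 ± 0.27). *Pecam1* (NM_001032378), CD31, gave 18.1 ± 2.31 and 12.9 ± 2.16, or -0.38 ± 0.27. *Cdh5* was the only one of the 9 past 2-fold. It rests on 1 spot per array near the floor of 6.20, and 2.3% of genes in the dimmest signal group were past 2-fold upward and 2.19% past it downward. From the software's errors its log2 fold change had an error of 0.29 and that of *Pecam1* one of 0.30. *Cdh5* fell inside 2-fold without scaling (0.99) and under normexp (0.29), a correction with an added offset that shrinks the ratios of dim genes.

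**Figure D4:**
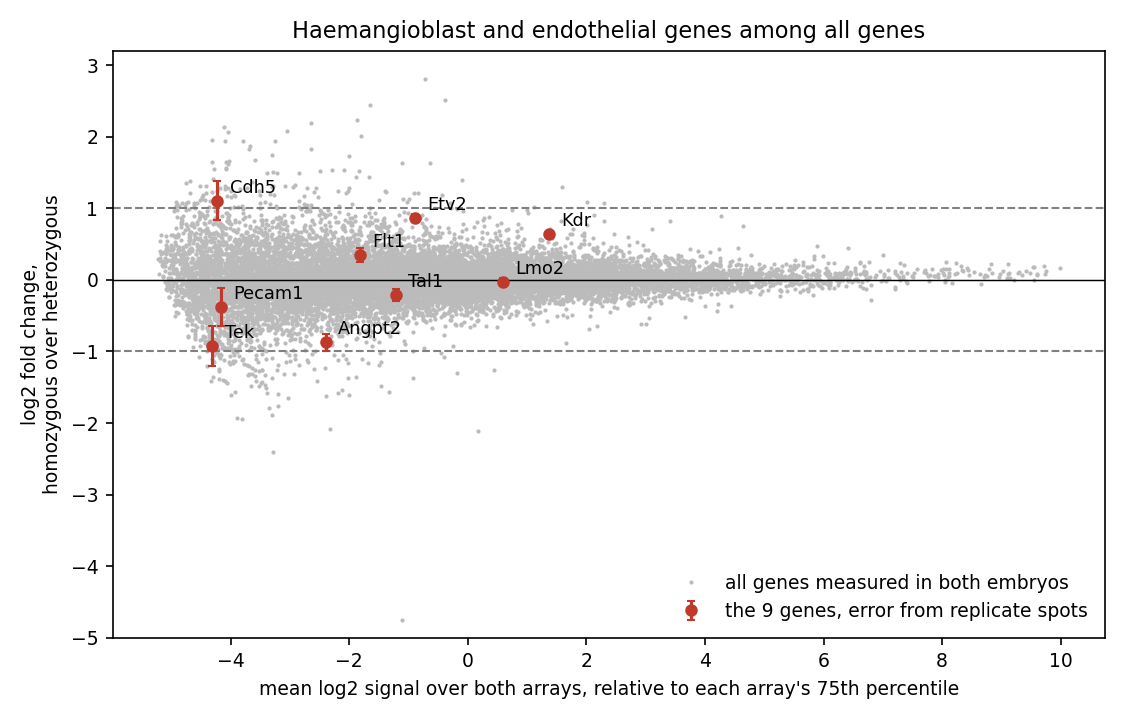
Log2 fold change (vertical axis, homozygous over heterozygous) against mean log2 signal relative to the 75th percentile of each array (horizontal axis) for the 14770 genes measured in both embryos (small points) and the 9 genes (large points, bars the error from replicate spots), with dashed lines at 2-fold. Kdr and Etv2 lie above most genes of their signal, while Cdh5, Pecam1 and Tek lie where the scatter is widest.

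Ratios spread more widely among dim genes. In the dimmest signal group the median log2 fold change, in size, was 0.26 and the median error from replicate spots 0.21. In the brightest group they were 0.09 and 0.05. *Cdh5*, *Pecam1* and *Tek* fell in the dimmest group, *Angpt2*, *Flt1* and *Tal1* in the second, *Etv2* and *Lmo2* in the third and *Kdr*, by the mean signal of its probes, in the brightest. From the dimmest group to the brightest, 8.31%, 4.79%, 1.87% and 0.704% of genes passed 1.5-fold upward, and 9.29%, 3.39%, 0.65% and 0.162% passed it downward.

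Other ligands and receptors of the same systems, where measured in both embryos, lay inside 1.5-fold, except *Pgf*. Of all genes, 92.7% lay inside it. Of 11 listed genes 7 were measured, of which 6 were higher and 1 lower, 0 past 2-fold, with a median log2 fold change of 0.28 beside 0.01 over all genes. *Vegfc*, a ligand of the lymphatic receptor, was the highest, at 0.54 ± 0.12. *Vegfa*, the ligand of Kdr and Flt1, had 2 probes at 0.42 and 0.004. *Pgf*, a ligand of Flt1, was the lowest, at -0.74 ± 0.23, from 28.6 to 15.8. The receptor *Flt4* was at 0.39 ± 0.25 and the ligand *Vegfb* at 0.31 ± 0.08. *Angpt1*, the ligand that activates Tie2, was not well above background in either embryo, nor were *Angpt4* and *Vegfd*. *Ptprb*, the phosphatase that acts on Tie2, had a probe well above background in the Dullard-/- embryo alone, and its signals (6.55 and 9.41) were 1.55-fold higher there. The other *Ptprb* probe went the other way (2.17 and 1.68) and was not well above background in either embryo.

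Of 20 listed genes of the endothelial surface and junctions 18 were measured, and all 18 lay inside 1.5-fold, as did 92.7% of all genes. Their median was 0.07, with 12 higher and 6 lower, and -0.05 without scaling. *Jam2*, a junction molecule, was the highest, at 0.56 ± 0.06, and *Stab1*, a scavenger receptor, the lowest, at -0.45 ± 0.28. *Egfl7*, secreted by endothelium and also by other early cells, was at -0.09 ± 0.05 and *Cd34* at 0.11 ± 0.19. The other *Cd34* probe was lower, from 19.3 to 9.58, and was well above background in the Dullard+/- embryo alone. Markers of mature endothelium were near the floor, with *Vwf* at 8.93 ± 1.58 and 7.56 ± 1.69 and *Cldn5* at 8.70 ± 1.57 and 8.21 ± 1.74. The 13 measured of 14 arterial, venous and Notch genes also lay inside 1.5-fold, with a median of -0.03 (-0.15 without scaling, 0.07 with the brightest probe of each gene), from *Apln*, the apelin ligand, at -0.31 ± 0.05 to *Unc5b*, a netrin receptor, at 0.39 ± 0.05.

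The transcription factors of blood and endothelium differed past 2-fold in both directions. Of 25 listed genes 20 were measured. Of these 20, 7 were at least 1.5-fold lower and 2 at least 1.5-fold higher, beside 3.37% and 3.92% of all genes. Their median log2 fold change was -0.33, which ran from -0.44 without scaling to -0.07 with normexp (-0.24 with the brightest probe of each gene). Those at least 2-fold lower were *Gata1*, the erythroid factor (394 ± 39.4 and 148 ± 14.9, log2 fold change -1.30 ± 0.07), *Klf2*, a factor of endothelium and primitive red cells (133 ± 13.4 and 55.3 ± 5.74, -1.16 ± 0.09), and *Lyl1*, the close relative of *Tal1* (101 ± 10.2 and 43.2 ± 4.81, -1.11 ± 0.11). *Gata2*, a factor of blood progenitors, was at -0.76 ± 0.07 and *Meis1*, a homeobox factor of the same cells, at -0.74 ± 0.10. The one at least 2-fold higher was *Gfi1*, a repressor in blood cells, from a dim 9.83 ± 1.68 to 26.7 ± 3.14 (1.55 ± 0.26). *Hhex*, a homeobox factor of early endothelium and endoderm, was at 0.77 ± 0.06. *Sox18*, an endothelial Sox factor, was well above background (11.6) in the Dullard-/- embryo alone, where it was at least 2.02-fold higher, while its relatives *Sox7* (0.36 ± 0.07) and *Sox17* (0.37 ± 0.04) were inside 1.5-fold. *Hoxb5* (15.0 and 5.23) was well above background in the Dullard+/- embryo alone, and at least 1.91-fold lower in the other. A probe of *Mecom* was also well above background in the Dullard+/- embryo alone, and its signals (11.2 and 7.60) were 1.36-fold lower in the other. The other *Mecom* probe went the other way (1.31 and 7.32) and was not well above background in either embryo. Over all named genes, 903 were measured in the Dullard+/- embryo alone and 152 in the Dullard-/- embryo alone. *Ldb1*, which joins Lmo2 in its complex, was at 0.24 ± 0.05. *Etv2* was thus higher, and so was *Kdr* by the mean of its probes, though its brighter probe lay inside 1.5-fold. In the same embryo *Tal1* and *Lmo2* were inside 1.5-fold, *Lyl1*, *Gata1* and *Gata2* were lower, and *Gfi1* and *Hhex* were higher. Of the 20 measured factors of the list, 11 lay inside 1.5-fold, so the genes named here do not stand for the list.

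**Figure D5:**
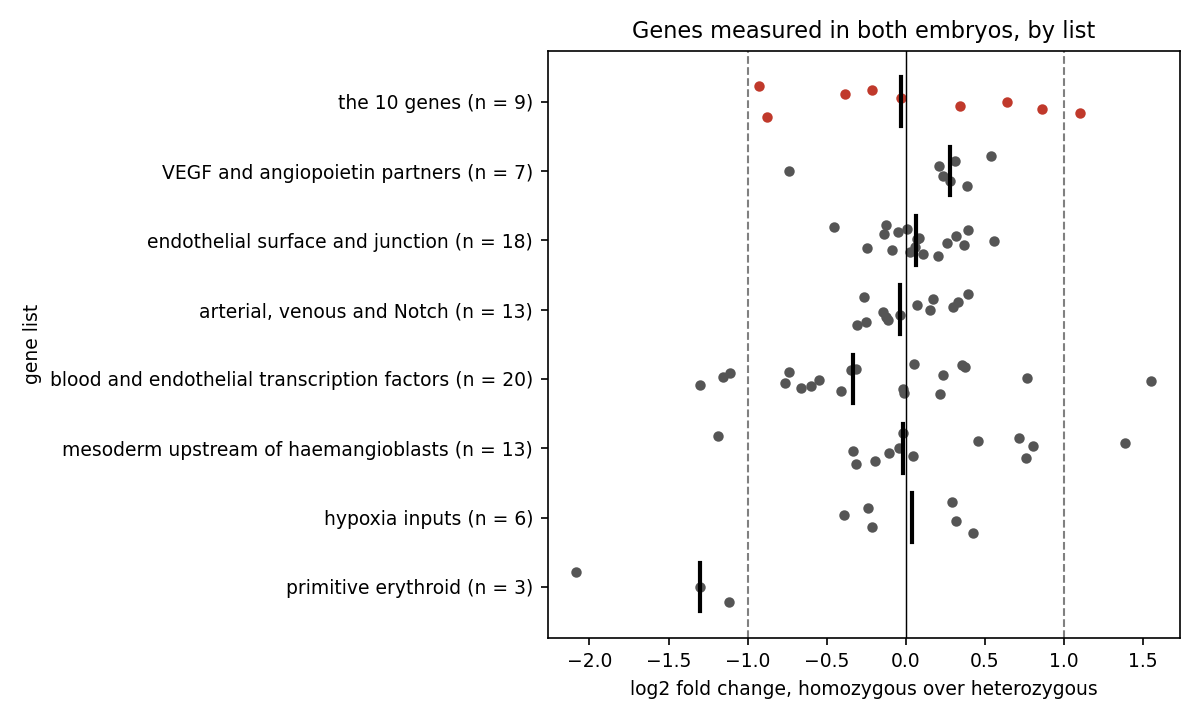
Log2 fold change (horizontal axis, homozygous over heterozygous) of every gene measured in both embryos, by list (rows, n the number measured), with the list's median as a vertical bar and dashed lines at 2-fold. The 9 measured genes of the set spread from -0.93 to 1.10, the endothelial surface and junction list lies between -0.45 and 0.56, and the 3 primitive erythroid genes lie at or under -1.12.

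The measured genes of the red cells, which share the haemangioblast as a source, were lower in the Dullard-/- embryo. Of 6 listed genes of primitive erythroid cells 3 were measured, all at least 2-fold lower, beside 0.765% of all genes. *Hbb-bh1*, an embryonic globin, was at -2.08 ± 0.12, *Gata1* at -1.30 ± 0.07 and *Epor*, the erythropoietin receptor, at -1.12 ± 0.14. *Hba-x* and *Klf1* were not well above background in either embryo. A probe of *Hbb-y*, named after its values were seen, was well above background in the Dullard+/- embryo alone. Its signals (11.1 and 7.37) were 1.39-fold lower in the other embryo. *Gata1* is also counted among the transcription factors above. Globins of adult red cells were lower as well. *Hbb-bt* (56.5 ± 5.79 and 2.38 ± 1.58) and *Hbb-bs* (23.1 ± 2.64 and 1.48 ± 1.48) were well above background in the Dullard+/- embryo alone, and were at least 7.19-fold and 2.93-fold lower, respectively. The near-identical pair *Hba-a1* and *Hba-a2*, whose probes may read both genes, was at -0.95 ± 0.08 and -1.38 ± 0.08. The signal summed over the 4 adult globins was 561 in the Dullard+/- and 205 in the Dullard-/- embryo, and that over the 6 primitive erythroid genes 589.5 and 211.1, before scaling. After scaling the sums were 2.53-fold and 2.58-fold lower. Most of the primitive erythroid sum came from *Gata1* (394 and 148) and most of the adult sum from *Hba-a1* and *Hba-a2*. The likeness of the 2 folds is thus not one of all genes in the lists. The part of embryonic blood and of blood of the mother in these differences was not tested.

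Markers of the tissues around the embryo were read beside the 10 genes, since decidual vessels and trophoblast also express some of them. Of 6 decidual genes, *Prl8a2*, *Dcn*, *Hoxa10* and *Lum* were not well above background in either embryo, and the summed signal of the 6 was 30.3 in the Dullard+/- and 41.9 in the Dullard-/- embryo. *Hoxa11*, also a gene of the late streak and allantois, was well above background in the Dullard-/- embryo alone, at least 3.64-fold higher (5.96 and 20.9). *Pgr*, the progesterone receptor, the only one of the 6 measured in both, was lower, from 27.2 to 17.2 (-0.55 ± 0.22). Of 6 trophoblast genes 5 were measured, 1 higher and 4 lower, with summed signals of 1017 and 875. *Prl3d1*, made by giant cells, was at 1.07 ± 0.21, while *Ascl2* and *Plac1*, genes of the ectoplacental cone and placenta, were at -0.74 ± 0.09 and -0.61 ± 0.09. The 5 visceral endoderm genes were all inside 1.5-fold, as were 92.7% of all genes, with summed signals of 22243 and 20354. Of 5 white cell genes, *Ptprc* was at -0.002 ± 0.14 and *Csf1r* at 0.09 ± 0.06, *Lyz2* and *Spi1* were not well above background in either embryo, and *Cd68* had no named probe. The part of these tissues in the values of the 10 genes was not tested.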

How the data were processed

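Total RNA of 1 whole embryo per genotype was labelled with Cy3 and hybridized to 1-colour Agilent whole mouse genome arrays. The authors deposited the spot intensity values of Agilent Feature Extraction 10.10, background-subtracted by that program, and a table of processed intensity values on a linear scale. That table equals the processed signal times a constant per array (4.91 and 5.20), whose origin and purpose are not given in the sources used here, and its medians were 189 and 181. It served as an alternative.

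Among 43020 spots that are not controls, the 206 marked as outliers by the scanner software on at least 1 array were dropped, and 0 were saturated. On the Dullard+/- array 31242 spots were well above background and on the Dullard-/- array 29310. The accessions on the spots, without versions, matched a RefSeq gene table (GRCm38.p6) for 30235 spots. Log2 signals were set relative to the 75th percentile of each array, spots were averaged by probe, and probes by gene, using those well above background (on over 50% of their spots) in both embryos. Where only 1 array gave such a probe, the dim side was set to the array's lowest signal well above background or to its own value, whichever was higher. With the former the fold is a lower bound, and with the latter it is the plain ratio of the signals. Errors from replicate spots were pooled over the 40 repeated probes closest in signal, except that a probe spotted at least 8 times had its own SD. Both arrays share a slide, so it could not be a block.

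The members, the lists and the rule for named genes (all members, *Dullard*, and in each list the genes past 2-fold or up to 4 with the largest log2 fold change) were chosen with earlier results of these data known. The letters GGAA, and genes named outside the rule (*Gata2*, *Meis1*, *Hhex*, *Hoxb5*, *Mecom*, *Pgr*, *Ascl2*, *Plac1*, *Sox7*, *Sox17*, *Ldb1*, *Egfl7*, *Cd34*, *Vwf*, *Cldn5* and *Vegfa*) were added after values were seen. Alternatives were 4 scalings, normexp (offset 50) on the median signals, the only spot signals used here beside the processed ones, dim probes kept, the brightest probe alone, linear folds averaged, the processed intensity table, and outlier marks ignored. The steps were run on data simulated from these arrays, with set shifts in some genes and noise from replicate spots alone. Those data held no spread between embryos or between probes, so they do not measure the error of the folds given here. The software was R 4.3.3 with limma 3.58.1, and Python 3.11.15 with pandas 2.3.3 and numpy 2.4.6. Comparisons of protein sequences were not run, 1 gene fixed as an erythroid marker was left out, and listed genes that the rule does not name enter the counts and medians only.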

Additional observations from a re-analysis of the deposited data

How the results depend on the processing

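With 1 array per genotype no embryo was left out in turn, and the number of arrays limits the precision. No paired analysis was possible because each genotype has 1 embryo. Each of *Cdh5*, *Etv2*, *Kdr*, *Flt1*, *Tal1*, *Pecam1*, *Angpt2* and *Tek* kept its direction under all 10 alternatives, and *Lmo2* under 8. For a gene with a single probe, the brightest probe and the average of linear folds return the main value by construction. Keeping dim probes and ignoring outlier marks also left these values unchanged, since their spots already passed those filters. The processed intensity table changes the scaling alone. The tally thus counts checks that could not change a direction.

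Without scaling, the all-gene median shifted from 0.01 to -0.10 on the log2 scale, the median of the 9 genes from -0.03 to -0.14, the count at least 2-fold higher from 1 to 0 and the count at least 2-fold lower from 0 to 1, and 35.3% of the genes past 2-fold were higher in place of 53.9%. With normexp, whose offset pulls dim genes toward 0 by construction, 0 of the 9 passed 2-fold upward, 1 passed 1.5-fold upward and 0 passed it downward, and all genes past 2-fold numbered 10 higher and 5 lower, in place of 132 and 113 (66.7% higher). *Tek* was then at -0.10, *Cdh5* at 0.29, *Angpt2* at -0.33 and *Etv2* at 0.62. The count at least 1.5-fold higher was 2 in place of 3 without scaling and with the brightest probe, *Kdr* being the gene lost. Without a filter on dim probes *Tie1* entered, the median of the members was 0.16, and all genes past 2-fold numbered 484 higher and 778 lower (38.4% higher). With the brightest probe *Kdr* was at 0.20, and the median of the arterial, venous and Notch list was 0.07 in place of -0.03.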

Other observations

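Genes of the mesoderm from which haemangioblasts arise, and of the oxygen response that controls VEGF, were also read. Of 14 mesoderm genes 13 were measured, with a median log2 fold change of -0.01 (-0.13 without scaling, 0.05 with the brightest probe of each gene). *Mixl1*, a homeobox gene of the streak, was 2.62-fold higher in the Dullard-/- embryo, from 164 ± 16.5 to 397 ± 39.8. *Mesp2* (0.80 ± 0.09), *Eomes* (0.76 ± 0.04) and *Snai1* (0.72 ± 0.09), all active in cells leaving the streak, were at least 1.5-fold higher. *T* was 2.28-fold lower, from 152 ± 15.3 to 61.8 ± 6.42, and *Cdx4*, which acts ahead of blood formation, was well above background in the Dullard+/- embryo alone and at least 2.37-fold lower in the other. *Mesp1* (-0.04 ± 0.07), *Foxf1* (0.05 ± 0.09) and *Hand1* (-0.10 ± 0.06), genes of early, lateral and extraembryonic mesoderm, were inside 1.5-fold. These 3 were named after their values were seen.

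Of 7 genes of oxygen sensing 6 were measured, all inside 1.5-fold, as were 92.7% of all genes, with a median of 0.04 (-0.21 with dim probes kept). *Arnt* was the highest, at 0.42 ± 0.09, but its probes were at 0.86 and -0.02, and *Epas1*, the HIF subunit of endothelium, was the lowest, at -0.39 ± 0.07, with probes from -0.69 to 0.10. *Egln1* was well above background in the Dullard+/- embryo alone, at least 1.10-fold lower.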
